A study of Mus musculus with 36 samples.

Results

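The integrated stress response and the unfolded protein response were followed through 35 genes, given by arm as a fixed list and matched by symbol to 35 of the 49315 genes of the count tables. The list held 9 regulators and effectors of the integrated stress response (Atf4, Ddit3, Trib3, Chac1, Sesn2, Atf3, Atf5, Nupr1 and Vldlr), 6 enzymes of serine, one-carbon and asparagine synthesis (Asns, Psat1, Phgdh, Psph, Shmt2 and Mthfd2) and 3 amino acid transport genes (Slc7a5, Slc3a2 and Slc7a1). On the endoplasmic reticulum (ER) side it held 4 genes of the stress sensors and XBP1 (Ern1, Atf6, Eif2ak3 and Xbp1), 10 ER chaperones and folding enzymes (Hspa5, Hsp90b1, Pdia3, Pdia4, Pdia6, Calr, Dnajb9, Sdf2l1, Creld2 and Manf) and 3 genes of ER-associated degradation (Herpud1, Sel1l and Edem1). The cells were proliferating C2C12 myoblasts, an established mouse line of muscle precursors, grown without any genetic change named in the labels. Polyadenylated RNA was counted in 18 libraries, 3 for each of 6 groups, and each library carried the number of its own sealed experiment unit. Each of 3 regimes, space without gravity, space with gravity, or land, was run without nanoceria and with nanoceria (particles of cerium oxide at 100 µg/ml, loaded with the culture medium). In all groups the cells sat in flight hardware and were preserved in it with RNAlater, and the land units were run later, as a repeat of the flight, so space and the flight run cannot be told apart. The p-values below measure only the spread between such units, and a change in bulk RNA cannot tell fewer cells of a kind from less RNA per cell.

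When amino acids run short, or when unfolded proteins build up in the ER, kinases phosphorylate the initiation factor eIF2α, general translation falls, and the mRNA of the transcription factor ATF4 is translated more. ATF4 in turn drives genes for amino acid synthesis, amino acid uptake and further regulators such as CHOP (Ddit3) and TRIB3. In the ER, the sensors PERK (Eif2ak3), IRE1α (Ern1) and ATF6 are released by the chaperone BiP (Hspa5), IRE1α splices the Xbp1 mRNA, and cleaved ATF6 and spliced XBP1 drive chaperone and degradation genes. ATF4 and ATF6 are regulated largely after transcription, and an mRNA count does not read that step or the splicing of Xbp1.

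Promoter sequences of 32 of the 35 genes were in the RefSeq table for GRCm38.p6 (36 promoters, each 250 bases before to 50 after a transcription start); Atf6, Slc7a5 and Manf were not. The ER stress response element, searched on both strands as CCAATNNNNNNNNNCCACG, lay in the promoters of 5 of the 32 genes (Hspa5, Hsp90b1, Calr, Pdia6 and Creld2) and in 0.119% of the 32851 promoters of the table. Its shorter form, ATTGG and CCACG with any single base between them, lay in Herpud1 and in 0.037% of all promoters. The amino acid response element bound by ATF4 with C/EBP partners, TGATGNAA, lay in 7 genes (Asns, Atf3, Chac1, Herpud1, Nupr1, Trib3 and Vldlr) and in 3.97% of all promoters. The letters TGACGTGG (0.676% of all promoters) and TGACGTCA (1.79%) were in none of the 32. A match describes letters only and is neither a bound site nor a cause, and no match says only that these letters are not in this window. Herpud1 held both the short ER stress form and the amino acid response element, 5 of the 10 chaperone genes (Manf was not searched) held the long form, and Ddit3, Psat1 and Phgdh held none of these elements in this window. The sequences below show examples of each element, 5′ to 3′ on the strand of the gene, with the fixed letters of the element in capitals. Hspa5 is shown over the 250 bases before its start (chr2:34771840-34772089, plus strand). The Hsp90b1 stretch (chr10:86705521-86705668, minus strand) holds the element on both strands.
Hspa5: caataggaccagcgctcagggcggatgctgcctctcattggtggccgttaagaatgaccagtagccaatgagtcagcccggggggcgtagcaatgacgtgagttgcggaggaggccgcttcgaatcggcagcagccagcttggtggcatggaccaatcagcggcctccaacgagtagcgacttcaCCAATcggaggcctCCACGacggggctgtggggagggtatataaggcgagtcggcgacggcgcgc
Hsp90b1: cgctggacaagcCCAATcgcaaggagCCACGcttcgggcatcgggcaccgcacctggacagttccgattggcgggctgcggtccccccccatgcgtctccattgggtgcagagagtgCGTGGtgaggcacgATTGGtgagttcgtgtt
Calr (chr8:84847063-84847105, minus strand): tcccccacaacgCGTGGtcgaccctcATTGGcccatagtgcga
Pdia6 (chr12:17266479-17266521, plus strand): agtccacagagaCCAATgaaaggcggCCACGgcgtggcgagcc
Creld2 (chr15:88819508-88819550, plus strand): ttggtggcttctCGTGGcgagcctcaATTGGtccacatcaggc
Herpud1 (chr8:94386365-94386399, plus strand, short form): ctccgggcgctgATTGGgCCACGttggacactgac
Atf3 (chr1:191183424-191183455, minus strand, amino acid response element): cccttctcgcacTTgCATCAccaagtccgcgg
Chac1 (chr2:119351037-119351068, plus strand, amino acid response element): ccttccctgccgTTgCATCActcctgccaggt
Asns (chr6:7693213-7693244, minus strand, amino acid response element): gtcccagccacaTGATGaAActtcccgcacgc

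Total counts ran from 2986628 to 11378178 in 17 libraries, and the smallest library (space with gravity with nanoceria replicate 3) held 23858. That library had 130 counts over the 35 genes and a count for 24 of them, and 3 counts were worth 35.7 CPM (counts scaled to the size of the library) there, against 0.193 to 1.11 CPM in the others. All 35 genes passed the filter on low counts and were among the 11558 genes tested. Lars2 and 5 other genes took 24.5% to 76.3% of the counts of the 17 libraries, and on land 49.6% to 76.3%, against 24.5% to 54.4% in space with gravity without the smallest library. Of 7 myoblast markers 6 were tested, led by Ncam1 (328 to 4338 CPM in 17 libraries), Des and Myf5, while Myod1 had counts in 10 libraries; in the 17 larger libraries their summed level was 443 to 2071 CPM on land, 737 to 4492 in space without gravity and 1156 to 3205 in space with gravity. The 7 markers of differentiated muscle summed to 3.32 to 91.4 CPM on land, 1.40 to 17.8 in space without gravity and 0.659 to 10.7 in space with gravity. The 3 proliferation markers (Mki67, Top2a and Ccnb1) summed to 9.62 to 120 CPM on land, 32.3 to 88.1 in space without gravity and 7.25 to 70.1 in space with gravity. Among them Ccnb1 was low, at 0.200 to 3.39 CPM in the 17 larger libraries. The 3 endothelial, 3 epithelial and 3 adipocyte markers summed to at most 3.67 CPM, and of 3 leukocyte markers Cd68 alone was above 1.28 CPM, with Adgre1 at 0. The part of these values in the results below was not tested.

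Per kilobase of exon the list spanned a wide range of levels. The ER chaperones Hsp90b1 (GRP94), Hspa5 (BiP) and Calr (calreticulin) led with mean levels over 17 libraries of 486, 372 and 312 CPM per kb, followed by Atf4 at 151. The 2 kinase sensors closed the order, with Eif2ak3 at 1.94 and Ern1 at 0.932 CPM per kb, 250 and 521 times below Hsp90b1. Group means of Hsp90b1 ranged from 280.0 to 669 CPM per kb and those of Hspa5 from 198 to 484, so these neighbours in the order overlapped. Outside the 6 dominant genes the list made up 0.424% to 3.17% of the counts of the 17 libraries, and chaperones and folding enzymes took most of it. The highest share was that of space without gravity without nanoceria replicate 2 and the lowest that of land with nanoceria replicate 3.

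**Figure D1:**
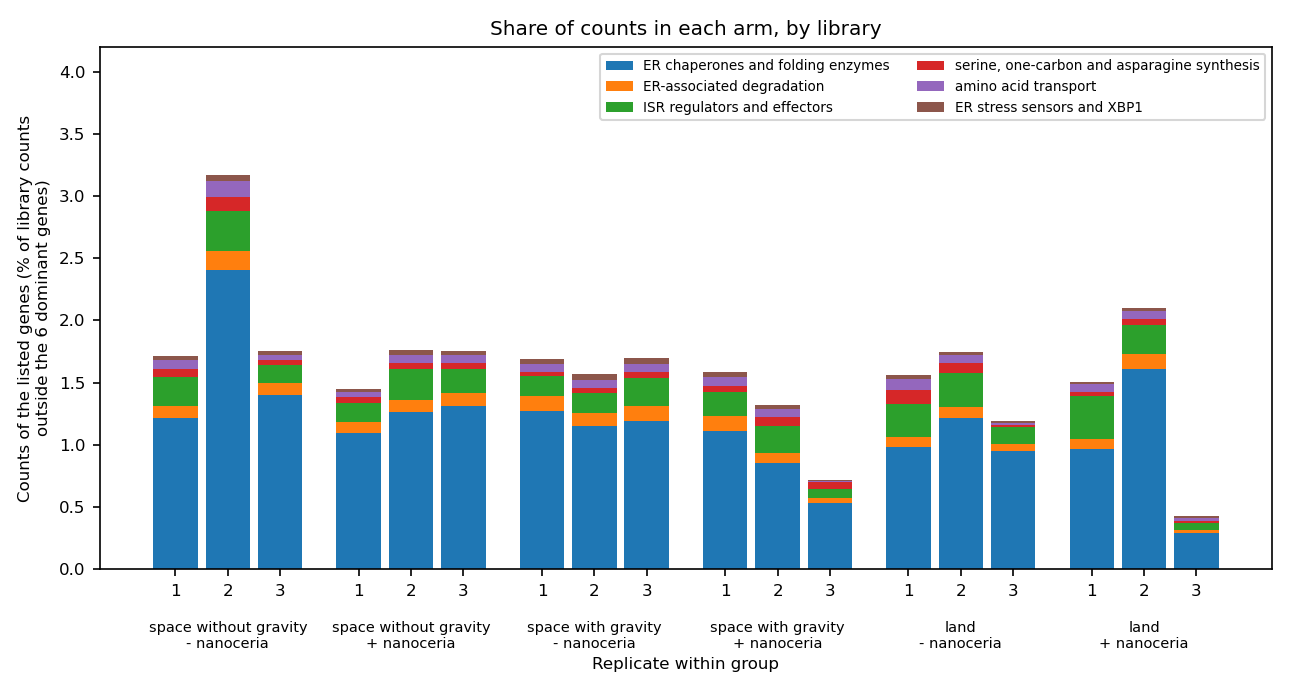
Stacked bars give, for each of the 18 libraries, the counts of the 6 arms as a percentage of library counts outside the 6 dominant genes. Land with nanoceria replicate 3 (0.424%) and the smallest library (space with gravity with nanoceria replicate 3, 0.716%) are the lowest, and space without gravity without nanoceria replicate 2 (3.17%) is the highest.

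**Figure D2:**
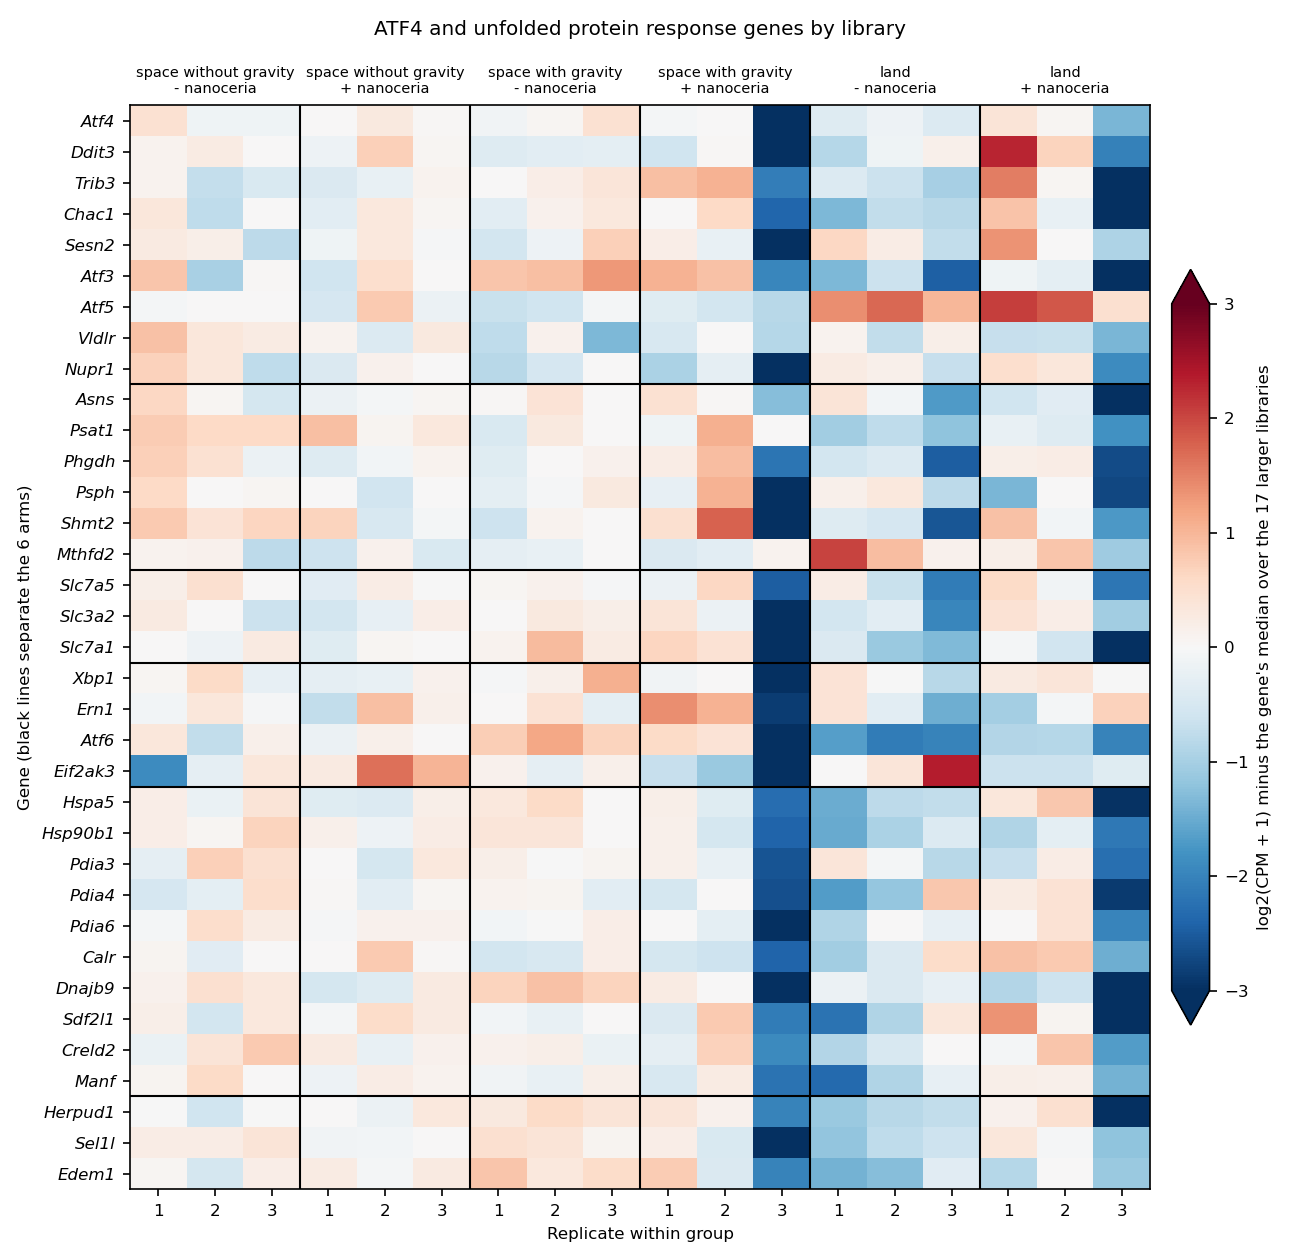
Each row is a gene and each column a library, with colour for log2(CPM + 1) minus the median of the gene over the 17 larger libraries. Atf5 is high in all land libraries and Atf6 low in them. The smallest library and land with nanoceria replicate 3 are each the lowest in their groups for 33 of 35 genes, against 77.8% and 37.5% of all genes tested.

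Space was set against land to ask which of these genes differ between flight and ground, with each space regime averaged over both nanoceria levels. Atf5 was lower and Atf6 higher in both space regimes, Atf3 was higher in space with gravity, and Psat1 was higher in space without gravity. In space with gravity, edgeR called 3 of 35 genes at an adjusted p under 0.05 (2 higher and 1 lower), or 8.57%, against 14.0% of all genes tested (7.22% higher and 6.74% lower). In space without gravity it again called 3 of 35 (2 higher and 1 lower), against 5.25% of all genes tested (2.81% higher and 2.44% lower). At an unadjusted p under 0.05 there were 7 and 6 of the 35, against 31.9% and 24.7% of all genes tested. The share of listed genes called was below the background in space with gravity and near it in space without gravity, so the counts set the list apart from other genes in neither. The median log2 fold change of the list was 0.36 in space with gravity and 0.48 in space without gravity, beside -0.04 and -0.02 over all genes tested. Of the 35 values 26 and 29 were above 0, against 48.4% and 49.0% of all genes tested. Without land with nanoceria replicate 3 the medians were 0.17 and 0.26, beside 0.05 and 0.06 over all genes, with 20 and 26 values above 0. With DESeq2 size factors they were 0.04 and 0.25, beside -0.39 and -0.28 over all genes, with 19 and 25 above 0. Counts above 0 move with the scaling of all genes, and the shares of all genes above 0 in these fits are not given. Both comparisons share the 6 land libraries, so their values are not independent.

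**Figure D3:**
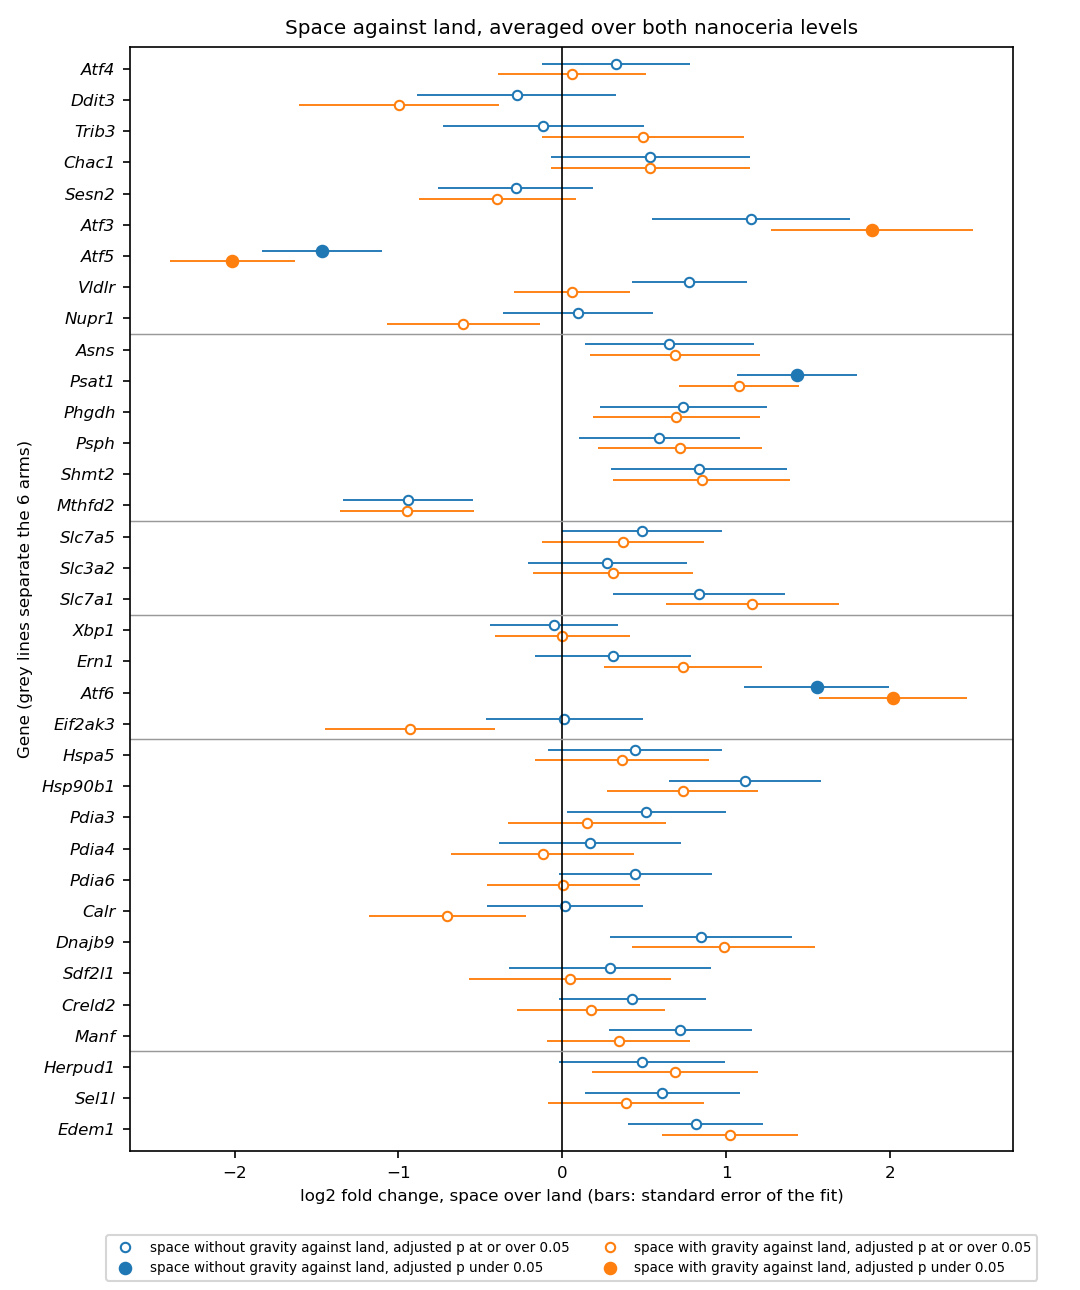
Points give the log2 fold change of each gene in both space regimes against land, averaged over the nanoceria levels, and bars the standard error of the edgeR fit. Filled points had an adjusted p under 0.05: Atf5 and Atf6 in both comparisons, Atf3 in space with gravity and Psat1 in space without gravity.

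Atf5 (ENSMUSG00000038539, GRCm38 chromosome 7, 44812256 to 44816658) encodes a transcription factor close to ATF4 whose translation is likewise raised by eIF2α phosphorylation. On land it stood at 115, 145 and 88.1 CPM without nanoceria and at 184, 159.7 and 60.9 CPM with it. Space without gravity gave 41.7, 43.6 and 43.3 CPM without nanoceria and 30.4, 75.0 and 37.9 CPM with it, and space with gravity gave 26.8, 28.4 and 41.3 CPM without and 33.6 and 29.01 CPM with it (23.8 CPM in the smallest library). Every library of space with gravity lay below every land library, while in space without gravity 1 library (75.0 CPM) lay above the lowest land library (60.9 CPM). The log2 fold change was -2.01 ± 0.38 (SE) in space with gravity (edgeR adjusted p = 0.00656) and -1.47 ± 0.37 in space without gravity (edgeR adjusted p = 0.0314). The call in space without gravity was lost in 10 of 18 fits that left out 1 library, with edgeR adjusted p up to 0.0941. Exons of Atf5 share 4.11% of their bases with Nup62 and with Il4i1 on the opposite strand, whose own counts summed to 427 and 12 over all libraries against 6088 for Atf5.

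Atf6 (ENSMUSG00000026663, chromosome 1, 170704674 to 170867771), the membrane-bound sensor that is cleaved to a transcription factor, went the other way. Its land values were 36.8, 26.6 and 28.3 CPM without nanoceria and 62.9, 64.9 and 28.3 CPM with it. The values were 149, 70.3 and 131 CPM without nanoceria and 103, 131 and 117 CPM with it in space without gravity, and 197, 264 and 187 CPM without and 174 and 156 CPM with it (11.9 CPM in the smallest library) in space with gravity. The 11 space libraries other than the smallest, which had 1 count of Atf6, all lay above the 6 land libraries. Atf6 rose by a log2 fold change of 2.02 ± 0.45 in space with gravity (edgeR adjusted p = 0.0113) and of 1.55 ± 0.44 in space without gravity (edgeR adjusted p = 0.0498). Leaving out 1 library ended the call in space without gravity in 16 of 18 fits, with edgeR adjusted p up to 0.122. None of its exon bases overlaps another gene, and 21.5% of them belong only to transcripts with a retained intron, which the counts do not separate from spliced ones.

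Read as a ratio within each library, which no scaling between libraries can move, Atf6 had 0.183 to 0.465 counts for each count of Atf5 on land, 1.61 to 3.57 in space without gravity and 4.53 to 9.27 in space with gravity. The smallest library, with 1 count of Atf6 and 2 of Atf5, is left out of that range. The 3 ranges do not overlap, and each holds the libraries with and without nanoceria. Neither gene passed the test between the space regimes given below. This pair was chosen after its values were seen, so the ratio is a description without a test.

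**Figure D4:**
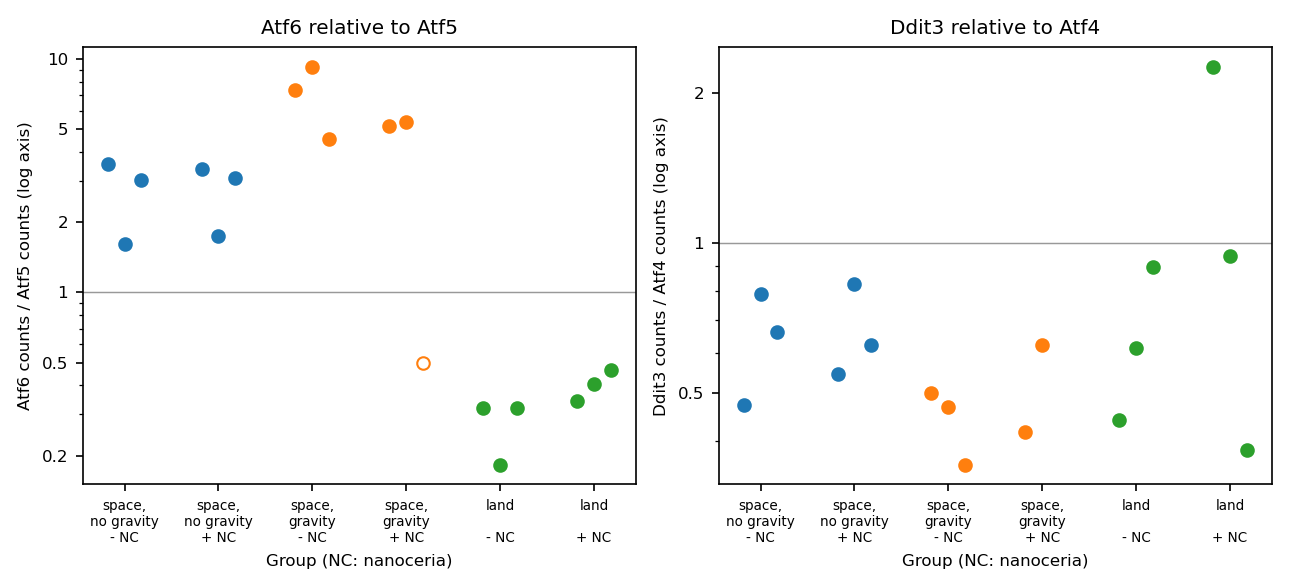
Points give the ratio of counts within each library on a log axis, Atf6 over Atf5 on the left and Ddit3 over Atf4 on the right, with the smallest library as an open circle (its Ddit3 count was 0 and is not drawn). The Atf6 ratio separates land (0.183 to 0.465) from space without gravity (1.61 to 3.57) and space with gravity (4.53 to 9.27), whereas the Ddit3 ratio is above 1 in land with nanoceria replicate 1 (2.26) alone.

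Atf3 (ENSMUSG00000026628, chromosome 1, 191170296 to 191218039), a stress-induced transcription factor downstream of ATF4, stood on land at 18.7, 30.9 and 8.21 CPM without nanoceria and 44.4, 39.5 and 1.30 CPM with it. In space with gravity it reached 87.6, 92.7 and 122 CPM without nanoceria and 102 and 91.2 CPM with it (11.9 CPM in the smallest library). Space without gravity lay between, at 87.4, 24.5 and 49.9 CPM without nanoceria and 32.03, 70.2 and 48.9 CPM with it. The 5 larger libraries of space with gravity lay above all land libraries, and those of space without gravity overlapped land. Atf3 rose in space with gravity by a log2 fold change of 1.89 ± 0.62 (edgeR adjusted p = 0.0492), and its value in space without gravity was 1.15 ± 0.60 (edgeR adjusted p = 0.247). The call in space with gravity was lost in 16 of 18 fits that left out 1 library and in 4 of 9 other alternatives, with adjusted p up to 0.321 in the latter. Of the 7 genes with an amino acid response element, Atf3 was the one that passed the test in either comparison.

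Psat1 (ENSMUSG00000024640, chromosome 19, 15904678 to 15947337), an aminotransferase of serine synthesis and an ATF4 target, was at 16.9, 20.7 and 14.8 CPM on land without nanoceria and at 30.4, 26.9 and 9.44 CPM with it. With gravity absent in space the libraries read 61.2, 54.4 and 54.5 CPM without nanoceria and 66.8, 37.5 and 44.9 CPM with it, and with gravity present 25.7, 43.6 and 35.6 CPM without and 32.3 and 75.1 CPM with it (35.7 CPM in the smallest library). All libraries of space without gravity lay above all land libraries, and 1 library of space with gravity (25.7 CPM) lay within the land range. Psat1 rose in space without gravity by 1.43 ± 0.36 (edgeR adjusted p = 0.0335), and in space with gravity its value was 1.08 ± 0.37 (edgeR adjusted p = 0.0556). The call in space without gravity was lost in 7 of 18 fits that left out 1 library.

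**Figure D5:**
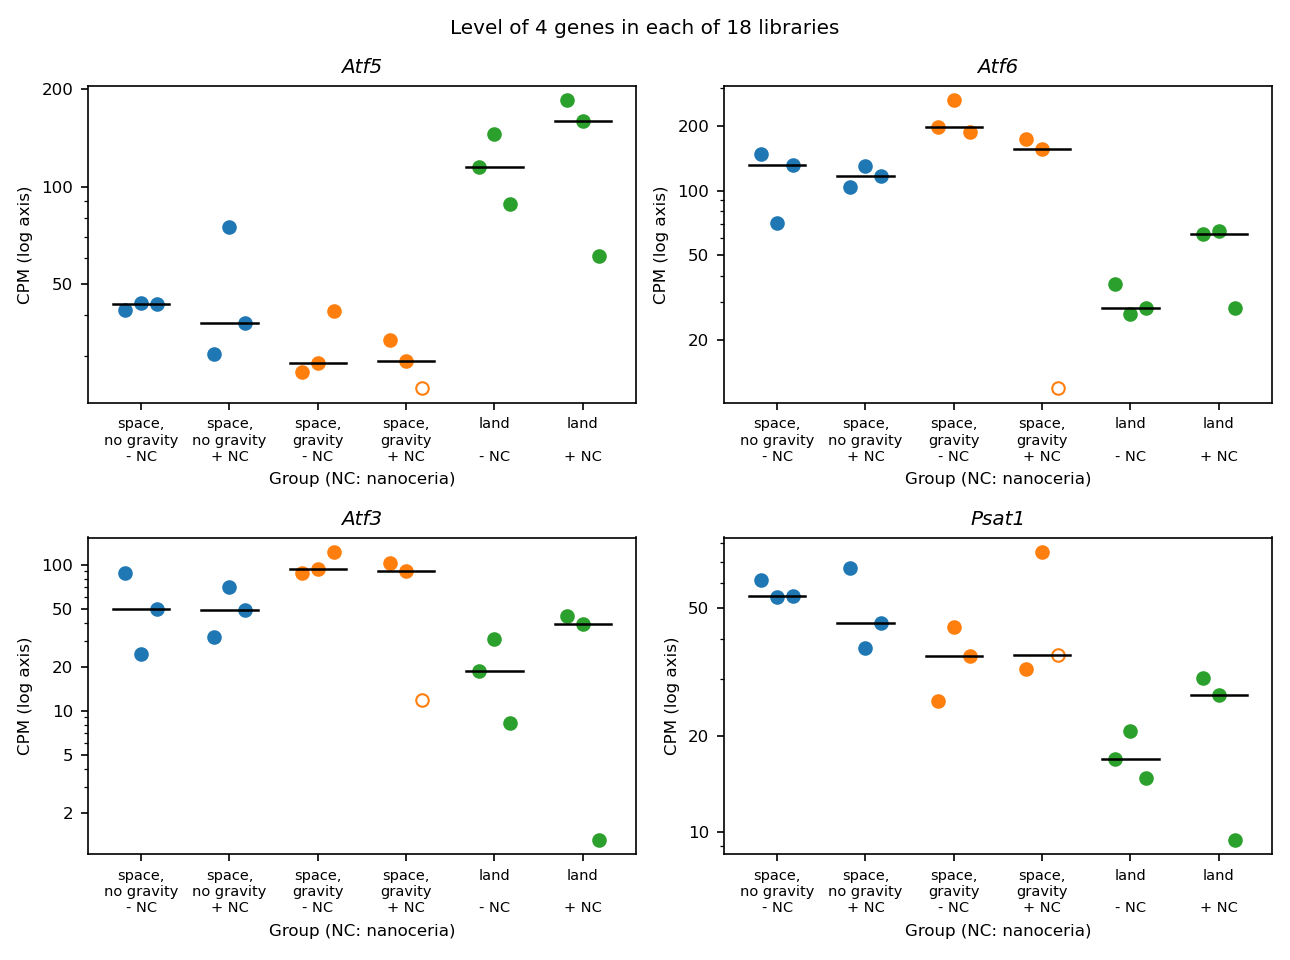
Points give the CPM of Atf5, Atf6, Atf3 and Psat1 in each library on log axes, lines the group medians, and the open circle the smallest library. All 6 land libraries lie below the larger space libraries for Atf6, and all 6 lie above the libraries of space with gravity for Atf5.

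Atf5 and Atf6 in space with gravity were past the threshold in 18 of 18 fits that left out 1 library, whereas in space without gravity leaving out any 1 of 6 libraries ended all 3 calls (replicates 1 and 3 of both groups of space without gravity, and replicates 1 and 2 of land without nanoceria). Other single libraries ended some of these calls, so in space without gravity Psat1 was called in 11, Atf5 in 8 and Atf6 in 2 of the 18 fits. Without the smallest library edgeR called 4 of 35 genes in space with gravity (Atf6, Atf5, Atf3 and Edem1, against 13.0% of all genes) and 3 in space without gravity (Atf6, Atf5 and Psat1, against 5.76%). Without land with nanoceria replicate 3 it called 2 (Atf5 and Atf6, against 8.36%) and 1 (Atf5, against 0.806%), and without both libraries 5 (Atf6, Atf5, Atf3, Slc7a1 and Dnajb9, against 9.93%) and 3 (Atf5, Atf6 and Psat1, against 3.05%). DESeq2 called 4 of 35 in each comparison, against 23.3% and 13.2% of all genes. Space with gravity and land differ in the share of the 6 dominant genes, and with that share as a covariate edgeR called none of the 35 in either comparison, against 0.00865% and 0.0519% of all genes, so the calls were lost across all genes. With it the value for Atf5 was -1.36 (edgeR adjusted p = 0.404) and for Atf6 2.29 (edgeR adjusted p = 0.228) in space with gravity. Longer genes had higher values against land across all genes tested (Spearman's rho of the log2 fold change with exon length 0.214 and 0.144 in space with and without gravity, across genes, which are not independent), and its part in the result for Atf6, with 9231 exon bases, was not tested.

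The other regulators of the integrated stress response did not pass the test. Atf4 itself (ENSMUSG00000042406) was at 199, 236 and 198 CPM on land without nanoceria and 344, 272 and 100.3 CPM with it. Space without gravity gave 360.4, 240.4 and 241 CPM without nanoceria and 261, 319 and 268 CPM with it, and space with gravity gave 242, 274 and 359.5 CPM without and 250.5 and 263 CPM with it (23.8 CPM in the smallest library). Apart from the smallest library and land with nanoceria replicate 3 (100.3 CPM), Atf4 stayed between 198 and 360 CPM in every library, with log2 fold changes of 0.06 ± 0.45 in space with gravity (edgeR adjusted p = 0.950) and 0.33 ± 0.45 without (edgeR adjusted p = 0.692). The sign in space with gravity turned under another scaling.

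Ddit3 (CHOP, the pro-apoptotic factor induced by ATF4) varied far more on land than in space. The values were 170.5, 189.6 and 159 CPM without nanoceria and 142, 264 and 167 CPM with it in space without gravity, and 121, 128 and 129 CPM without and 105 and 164 CPM with it (0 CPM in the smallest library) in space with gravity. On land it was at 87.6, 145 and 177 CPM without nanoceria and at 777, 255 and 38.4 CPM with it. The land group with nanoceria thus held both the highest and the lowest value of the 17 larger libraries. Its log2 fold change was -0.997 ± 0.61 in space with gravity (edgeR adjusted p = 0.274) and -0.28 ± 0.60 in space without gravity (edgeR adjusted p = 0.815). Its exons share 3.97% of their bases with Mars on the opposite strand.

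Trib3, a pseudokinase that feeds back on ATF4, was at 116, 98.7 and 76.6 CPM on land without nanoceria and 452, 161 and 7.49 CPM with it. With gravity absent in space the libraries read 167, 94.3 and 112 CPM without nanoceria and 114, 132 and 165 CPM with it, and with gravity present 155, 178 and 201 CPM without and 290.0 and 321 CPM with it (35.7 CPM in the smallest library). The larger space libraries lay between 94.3 and 321 CPM, inside the span of the land group with nanoceria. Fold changes were 0.49 ± 0.62 with gravity (edgeR adjusted p = 0.620) and -0.12 ± 0.61 without (edgeR adjusted p = 0.932). Of the remaining regulators, Chac1 (a glutathione-degrading enzyme), Sesn2 (a leucine sensor), Nupr1 (a small chromatin-associated stress protein) and Vldlr (a lipoprotein receptor) had log2 fold changes between -0.61 and 0.77 over both comparisons and none passed the test.

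Among the enzymes, Asns makes asparagine and is a classic ATF4 target. It was at 114, 82.1 and 26.3 CPM on land without nanoceria and 57.8, 68.9 and 4.56 CPM with it. Space without gravity gave 135, 90.6 and 60.6 CPM without nanoceria and 77.5, 83.9 and 91.2 CPM with it, and space with gravity gave 89.3, 116 and 87.4 CPM without and 119.6 and 90.1 CPM with it (35.7 CPM in the smallest library). Space and land overlapped, and the fold changes were 0.69 ± 0.52 with gravity (edgeR adjusted p = 0.379) and 0.65 ± 0.51 without (edgeR adjusted p = 0.452). The serine-pathway genes Phgdh, Psph and Shmt2 had values of 0.59 to 0.85 in both comparisons, none past the threshold. Mthfd2, the mitochondrial folate enzyme, pointed the other way, with -0.95 ± 0.41 in space with gravity (edgeR adjusted p = 0.121) and -0.94 ± 0.40 in space without gravity (edgeR adjusted p = 0.153). Mthfd2 was past the threshold in space with gravity with DESeq2 size factors in edgeR (18.9% of all genes called, and 7.03% in space without gravity) and in both comparisons with the DESeq2 test. Psph shares 10.4% of its exon bases with Cct6a on the opposite strand, which had 7134 counts against 1326 for Psph, so its value is uncertain.

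Slc7a5 encodes the light chain of the large neutral amino acid exchanger whose heavy chain is Slc3a2. It was at 82.3, 44.0 and 15.8 CPM on land without nanoceria and 106, 65.7 and 15.0 CPM with it. The values were 80.0, 99.0 and 70.9 CPM without nanoceria and 55.5, 82.8 and 70.4 CPM with it in space without gravity, and 74.3, 77.4 and 68.8 CPM without and 62.6 and 109.5 CPM with it (11.9 CPM in the smallest library) in space with gravity. The land libraries spread wider than the larger space libraries and enclosed most of them, with fold changes of 0.37 ± 0.49 with gravity (edgeR adjusted p = 0.641) and 0.48 ± 0.49 without (edgeR adjusted p = 0.568). Slc3a2 had values of 0.31 and 0.27, and Slc7a1, the cationic amino acid transporter, of 1.16 ± 0.53 with gravity (edgeR adjusted p = 0.139) and 0.83 ± 0.52 without (edgeR adjusted p = 0.336).

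The sensor arm was expressed at low levels per kilobase, with Atf6 at 12.3 and Xbp1 at 9.48 CPM per kb over 17 libraries. Ern1, the kinase and RNase that splices Xbp1 mRNA, was at 8.57, 4.86 and 1.64 CPM on land without nanoceria and 2.59, 6.01 and 10.7 CPM with it. With gravity absent in space the libraries read 5.82, 8.22 and 6.06 CPM without nanoceria and 3.35, 12.6 and 7.11 CPM with it, and with gravity present 6.25, 8.77 and 4.94 CPM without and 17.97 and 14.0 CPM with it (0 CPM in the smallest library). With 910 counts over all libraries its ranges overlapped, and the fold changes were 0.74 ± 0.48 with gravity (edgeR adjusted p = 0.310) and 0.31 ± 0.48 without (edgeR adjusted p = 0.730).

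Xbp1, whose mRNA is spliced by IRE1α to encode a transcription factor, was at 37.6, 27.6 and 15.4 CPM on land without nanoceria and 34.1, 36.3 and 27.7 CPM with it, and in space without gravity at 29.1, 42.1 and 23.3 CPM without and 23.1, 23.8 and 31.0 CPM with it. In space with gravity it was at 27.1, 31.2 and 60.1 CPM without nanoceria and 25.8 and 28.1 CPM with it (0 CPM in the smallest library). Its fold changes were 0.00 ± 0.41 with gravity (edgeR adjusted p = 1.00) and -0.05 ± 0.39 without (edgeR adjusted p = 0.952).

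Eif2ak3 (PERK, the ER-resident eIF2α kinase) varied widely between single libraries. On land it was at 8.71, 11.5 and 48.3 CPM without nanoceria and 5.18, 5.21 and 6.51 CPM with it. Space without gravity gave 1.60, 7.05 and 11.2 CPM without nanoceria and 10.6, 29.7 and 18.6 CPM with it, and space with gravity gave 9.54, 7.05 and 9.72 CPM without and 4.99 and 3.51 CPM with it (0 CPM in the smallest library). The values of space without gravity were higher with nanoceria in 2 of 3 libraries than any without it, whereas on land 1 library without nanoceria (48.3 CPM) stood above the rest. Against land the fold changes were -0.93 ± 0.52 with gravity (edgeR adjusted p = 0.228) and 0.01 ± 0.48 without (edgeR adjusted p = 0.994). The test of a nanoceria effect that differs between the 3 regimes gave Eif2ak3 an unadjusted p of 0.00631, the smallest of the list, but an adjusted p of 0.727 in edgeR. Its 1064 counts over all libraries and an 8.05% exon overlap with Gm43292 on the opposite strand limit what these values can show.

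None of the 10 chaperones and folding enzymes passed the test in either comparison, and their median log2 fold changes were 0.16 in space with gravity and 0.44 in space without gravity. Hspa5 (BiP, the Hsp70 of the ER lumen, ENSMUSG00000026864) was at 582, 947 and 978 CPM on land without nanoceria and 2069, 2876 and 209.6 CPM with it. The values were 1888, 1431 and 2134 CPM without nanoceria and 1284, 1235 and 1865 CPM with it in space without gravity, and 2043, 2459 and 1643 CPM without and 1847 and 1273 CPM with it (334 CPM in the smallest library) in space with gravity. Land without nanoceria lay below every larger space library, but land with nanoceria held the highest value of all and the lowest, and the fold changes were 0.36 ± 0.53 with gravity (edgeR adjusted p = 0.674) and 0.44 ± 0.53 without (edgeR adjusted p = 0.640).

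Hsp90b1, the ER member of the Hsp90 family, was at 754, 1117 and 1610.0 CPM on land without nanoceria and 1152, 1750.0 and 484 CPM with it. With gravity absent in space the libraries read 2467, 2232 and 3395 CPM without nanoceria and 2378, 1936 and 2516 CPM with it, and with gravity present 2749, 2751 and 2145 CPM without and 2368 and 1479 CPM with it (405 CPM in the smallest library). All libraries of space without gravity lay above all land libraries. The fold change there was 1.11 ± 0.46 with an unadjusted p of 0.0271 and an edgeR adjusted p of 0.148, and it was 0.73 ± 0.46 in space with gravity (edgeR adjusted p = 0.285). A gene on the opposite strand, 1810014B01Rik, shares 10.3% of its exon bases and had 447 counts against 235926.

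Dnajb9 (an Hsp40 cochaperone of BiP) was at 101, 84.9 and 96.0 CPM on land without nanoceria and 61.8, 73.9 and 6.18 CPM with it. Space without gravity gave 125, 159.7 and 141 CPM without nanoceria and 78.8, 86.5 and 139 CPM with it, and space with gravity gave 181, 212 and 183 CPM without and 136 and 114 CPM with it (0 CPM in the smallest library). The 5 larger libraries of space with gravity lay above all land libraries. Its fold changes were 0.98 ± 0.56 with gravity (edgeR adjusted p = 0.235) and 0.85 ± 0.56 without (edgeR adjusted p = 0.357). The protein disulfide isomerases Pdia3, Pdia4 and Pdia6, the lectin chaperone Calr, and Sdf2l1, Creld2 and Manf ranged from -0.70 (Calr with gravity) to 0.72 (Manf without gravity). The 5 genes whose promoters hold the long ER stress response element had values from -0.70 to 0.74 in space with gravity and from 0.02 to 1.11 in space without gravity, and none passed the test.

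In the degradation arm, Herpud1, a membrane protein of the ubiquitin ligase complex, was at 132, 161 and 173 CPM on land without nanoceria and 315, 401 and 27.3 CPM with it. The values were 285, 189 and 285 CPM without nanoceria and 288, 253 and 356 CPM with it in space without gravity, and 353, 430.5 and 374 CPM without and 369.5 and 317 CPM with it (71.5 CPM in the smallest library) in space with gravity. Land without nanoceria lay below all larger space libraries, and land with nanoceria spread across them. The fold changes were 0.69 ± 0.51 with gravity (edgeR adjusted p = 0.370) and 0.49 ± 0.51 without (edgeR adjusted p = 0.583). Sel1l, the adaptor of the HRD1 ligase, had values of 0.39 and 0.61. Edem1, which passes misfolded glycoproteins to degradation, had 1.02 ± 0.41 in space with gravity (edgeR adjusted p = 0.0993) and 0.81 ± 0.41 without (edgeR adjusted p = 0.229).

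With the smallest library set aside, the land libraries with nanoceria differed from each other more than those of any other group. The median standard deviation of log2(CPM + 1) over the 35 genes was 1.29 there, against 0.586 on land without nanoceria, 0.34 and 0.297 in space without gravity without and with nanoceria, and 0.252 in space with gravity without nanoceria. In space with gravity with nanoceria it was 1.61 with the smallest library and 0.343 without it. Replicate 1 of land with nanoceria was the highest of the 17 larger libraries for 8 genes, among them Ddit3, Trib3, Chac1 and Sdf2l1, while replicate 3 was the lowest of the 17 for 26 genes. The TMM factor of replicate 1 was 0.403, against 0.747 to 1.37 in the other larger libraries, which raises all of its CPM values. The part of this factor in its ranks was not tested. The ranks among the 17 libraries and the standard deviations are given for the 35 genes only, so they are not shown to be particular to the list. Replicate 3 was lowest in its group for 33 of 35 listed genes and for 37.5% of all genes tested. Its mitochondrial share outside the dominant genes was 1.45%, beside 0.485% and 0.174% in replicates 1 and 2; the part of this in the low values was not tested. Within the chaperones the same group split, with 1.80 and 1.64 counts of Hspa5 for each count of Hsp90b1 in replicates 1 and 2 and 0.433 in replicate 3. The ratio was 0.772, 0.848 and 0.608 on land without nanoceria and 0.540 to 0.894 in the 11 larger space libraries, and it is a description without a test. Every averaged value against land includes the land group with nanoceria.

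Nanoceria was asked about by setting the libraries with it against those without it, averaged over the 3 regimes. edgeR called 0 of 35 genes, against 0% of all genes tested. At an unadjusted p under 0.05 there were 0 of the 35, against 6.54% of all genes tested. DESeq2 and limma voom also called 0 of 35 (DESeq2 0.00865% of all genes). The log2 fold changes ran from -0.85 (Dnajb9) to 0.52 (Shmt2), with a median of -0.02 beside -0.03 over all genes. The smallest unadjusted p were those of Dnajb9 (-0.85 ± 0.45, edgeR adjusted p = 0.771), Mthfd2 (-0.45 ± 0.33, edgeR adjusted p = 0.825) and Ern1 (0.52 ± 0.39, edgeR adjusted p = 0.835). Within the regimes, 0 of 35 were called in space without gravity, in space with gravity or on land (0% of all genes in each). At an unadjusted p under 0.05 there were 1, 0 and 1 of the 35, against 3.97%, 4.46% and 10.2% of all genes tested. Eif2ak3 was the gene in both cases. Its nanoceria value was 1.56 ± 0.70 in space without gravity and -2.01 ± 0.72 on land, and the test between regimes is given above.

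Gravity was asked about within space, with positive values for genes higher in space without gravity. edgeR called 0 of 35 genes on the average over both nanoceria levels, against 0% of all genes tested. At an unadjusted p under 0.05 there were 0 of the 35, against 5.85% of all genes tested. DESeq2 (0.0952% of all genes) and limma voom also called 0 of 35. Values ran from -0.74 (Atf3) to 0.94 (Eif2ak3), with a median of 0.11 beside 0.04 over all genes. The smallest unadjusted p were those of Vldlr (0.72 ± 0.36, edgeR adjusted p = 0.891), Eif2ak3 (0.94 ± 0.51, edgeR adjusted p = 0.902) and Calr (0.72 ± 0.48, edgeR adjusted p = 0.933). So Atf3, past the threshold against land with gravity and not without it, is not shown to differ between the space regimes, nor are Psat1, Atf5 and Atf6.

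When each nanoceria level was taken alone, with 3 libraries against 3, edgeR called 0 of 35 genes in all 4 comparisons with land and both comparisons of gravity. All genes tested gave 0.00865% in space with gravity against land with nanoceria, 0.0433% in space without gravity against land with nanoceria, and 0% in the others. The 2 comparisons of gravity each had 1 of 35 at an unadjusted p under 0.05, against 4.05% of all genes tested without nanoceria and 5.78% with it. For Atf5 the values in space with gravity were -1.85 ± 0.52 without nanoceria and -2.18 ± 0.55 with it, and in space without gravity -1.44 ± 0.52 and -1.50 ± 0.52. For Atf6 they were 2.82 ± 0.66 without nanoceria (edgeR adjusted p = 0.0667) and 1.22 ± 0.63 with it (edgeR adjusted p = 0.281) in space with gravity, and 1.93 ± 0.64 (edgeR adjusted p = 0.272) and 1.17 ± 0.62 (edgeR adjusted p = 0.315) in space without gravity. The difference between nanoceria levels in space with gravity was -1.60 ± 0.88 for Atf6 (edgeR adjusted p = 0.768). At an unadjusted p under 0.05 the counts were 5 and 3 of 35 in space with gravity and 5 and 3 in space without gravity, without and with nanoceria, against 21.5% and 20.5%, and 13.0% and 19.2%, of all genes tested. None of the 35 passed the tests of a contrast with land, of gravity or of nanoceria that differs between the levels of the other factor (0% of all genes tested in each of the 4 edgeR tests), so no gene is shown to respond to flight differently with nanoceria. At an unadjusted p under 0.05 each of these tests had 0 or 1 of the 35, against 4.26% to 6.79% of all genes tested.

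Further genes of both pathways were read from lists that hold no gene of the 35. Of 40 further genes of the integrated stress response, edgeR called 10 in space with gravity (7 higher and 3 lower, median 0.48) and 3 in space without gravity (2 higher and 1 lower, median 0.38). These are 25.0% and 7.50% of the list, against 14.0% and 5.25% of all genes tested, and the second is near that background. Cth (cystathionine gamma-lyase), Cebpg (a partner of ATF4 on its response element) and Lars (leucyl-tRNA synthetase) rose in space with gravity by 2.52 ± 0.57, 2.45 ± 0.58 and 1.65 ± 0.45, with edgeR adjusted p of 0.0114, 0.0142 and 0.0237. Cebpb, another partner of ATF4, Ddit4 (an mTORC1 inhibitor) and Jdp2 had log2 fold changes of -1.67 ± 0.41, -1.43 ± 0.43 and -1.56 ± 0.48, with edgeR adjusted p of 0.0165, 0.0365 and 0.0372. In space without gravity Cth and Cebpg rose by 2.13 ± 0.56 and 2.12 ± 0.57 (edgeR adjusted p = 0.0363 and 0.0413) and the value of Cebpb was -1.47 ± 0.41 (edgeR adjusted p = 0.0440). The 2 C/EBP partners thus differed from land in opposite directions: Cebpb was at 101 to 430 CPM on land and 38.1 to 118 in space without gravity, and Cebpg at 12.4 to 43.7 and 46.6 to 192 CPM. Cth was scarce, at 0 to 2.805 CPM on land, where 3 counts were worth 0.421 to 1.11 CPM. It was at 6.96 to 11.09 CPM in the larger libraries of space with gravity and at 3.71 CPM or more in space without gravity. The fold changes of Cth therefore rest on a land level near that floor.

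Of 40 further ER protein folding genes 39 were tested, and Ssr1, a subunit of the translocon-associated complex, was the one called in each comparison. That is 2.56% of the list, below the 14.0% and 5.25% of all genes tested. It was at 52.9 to 111 CPM on land, 174 to 336 CPM in space without gravity and 207 to 316 CPM in the 5 larger libraries of space with gravity, so it did not overlap land. Ssr1 rose by 1.48 ± 0.38 in space with gravity (edgeR adjusted p = 0.0201) and by 1.75 ± 0.39 in space without gravity (edgeR adjusted p = 0.0215). The medians of this list were 0.40 and 0.30. At an unadjusted p under 0.05 there were 12 and 9 of the 39, near the 31.9% and 24.7% of all genes tested.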

How the data were processed

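The files deposited by the authors give, per the file headers, raw read counts for Ensembl genes with their exon models, and each file is 1 library. CASAVA, Trimmomatic 0.36.29, STAR, Subread, featureCounts and GRCm38.p6 are named in the submitters' processing notes; the use of strand and of reads with several matches is not given in the sources used here. A read in overlapping exons can therefore not be placed with certainty. Groups came from the labels; replicate numbers follow the order of the records and pair nothing. No pair of libraries of the same group agreed within sampling noise, and pairs across groups were not compared. The 18 small RNA samples were not analysed here.

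The test was the quasi-likelihood F-test of edgeR 4.0.16 (R 4.3.3), after filterByExpr (11558 genes), TMM scaling and 1 robust fit of group means over all 18 libraries (12 residual degrees of freedom), with Benjamini-Hochberg adjustment over all genes tested and a threshold of 0.05. The common biological coefficient of variation was 0.659. The 13 contrasts were 9 between pairs of groups and 4 averages, beside 4 tests of an effect that differs between levels of the other factor. Standard errors come from the log2 fold change and its F statistic. CPM values use TMM-scaled library sizes. Floors of 3 counts cover counting error only. The procedure was tested on simulated data. Gene symbols came from a table of Ensembl names, exon overlaps from the deposited exon models and transcript types from GENCODE. Promoters came from RefSeq (GRCm38.p6), and 36 of 36 equalled the genome sequence.

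The 35 genes, the further lists and the alternatives were chosen with earlier results of these data known. By the rule for named genes, those past the threshold in an averaged contrast and 14 set genes (Atf4, Ddit3, Trib3, Atf3, Asns, Slc7a5, Xbp1, Ern1, Atf6, Eif2ak3, Hspa5, Hsp90b1, Dnajb9 and Herpud1) are given in every library, others by ranges, and from the further lists at most 3 genes in each direction. Alternatives were DESeq2 1.42.0 size factors within edgeR, the DESeq2 test, limma 3.58.1 voom with quality weights, no filter, a mean of at least 50 counts, the compared groups only, the 6 dominant genes (Lars2, Gm23935, Gm15564, Gm24270, Gm24187 and Gm25911) removed before scaling or their share as a covariate, and each library left out in turn. Leaving out both low libraries together was added after seeing the data.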

Additional observations from a re-analysis of the deposited data

How the results depend on the processing

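No paired analysis was possible because the labels carry no replicate numbers and the numbers used here only follow the order of the records. Scaling by DESeq2 size factors moved the median of all genes to -0.39 in space with gravity and -0.28 in space without gravity against land, and turned the calls in space with gravity from 2 higher and 1 lower to 1 higher and 2 lower. In the averaged comparison of space with gravity and land, the 3 genes called became 0 with the dominant share as a covariate and 5 without both low libraries. In that of space without gravity and land, the 3 became 1 with DESeq2 size factors, 1 without a filter and 0 with the covariate. Leaving out 1 library gave 0 to 3 there, with 0 on leaving out replicate 1 or 3 of either group of space without gravity or replicate 1 or 2 of land without nanoceria, and 1 on leaving out replicate 1 or 2 of space with gravity without nanoceria or replicate 1 or 3 of land with nanoceria. In space with gravity it gave 2 to 4. Atf5 and Atf6 stayed past the threshold in space with gravity in 18 of 18 fits that left out 1 library. Atf3 did so in 2 of 18 (without the smallest library or land with nanoceria replicate 1). In space without gravity Psat1 was called in 11 of 18, Atf5 in 8 of 18 and Atf6 in 2 of 18. The cause of these losses was not tested. Taken at 1 nanoceria level, 0 genes became 3 (DESeq2 test), 5 (voom), 2 (no filter), 2 (mean of at least 50 counts), 1 (compared groups only) and 3 (both low libraries left out) in space with gravity without nanoceria, and 0 to 1 with 1 library left out. With nanoceria they became 1 with the DESeq2 test and 1 with the mean of at least 50 counts. For space without gravity they became 2 (DESeq2 test) and 3 (voom) without nanoceria and 1 (DESeq2 test) with it. The test of a difference from land between nanoceria levels gave 1 gene without a filter in space without gravity. The shares of all genes called in these fits at 1 nanoceria level are not given, so these counts do not set the list apart from other genes. In the averaged comparisons the DESeq2 test called 23.3% of all genes in space with gravity and 13.2% in space without gravity. Counts for nanoceria and gravity were 0 under every alternative run; the compared groups only was not run for nanoceria averaged over the regimes or its test between regimes, which use all groups. Signs of log2 fold changes turned for genes short of the threshold, and the cause was not tested. In space with gravity Atf4 became -0.27 (DESeq2 size factors), -0.25 (DESeq2 test), -0.40 (voom) and -0.16 (mean of at least 50 counts), and ran from -0.10 to 0.28 with 1 library left out. Xbp1 became 0.0924 without a filter, 0.0123 with dominant genes removed, 0.97 with the covariate and 0.10 without both low libraries, and ran from -0.19 to 0.18. Ddit3 became 0.0243 with the covariate, and Hspa5 -0.0464 with voom. In space without gravity the covariate gave 0.17 for Ddit3, 0.42 for Trib3, 0.38 for Xbp1 and -0.16 for Eif2ak3, and no filter gave 0.0034 for Xbp1. Eif2ak3 was -0.20 with DESeq2 size factors, -0.20 with the DESeq2 test and -0.14 with the mean of at least 50 counts. With 1 library left out, Ddit3 ran from -0.55 to 0.38, Trib3 from -0.39 to 0.56, Xbp1 from -0.17 to 0.11 and Eif2ak3 from -0.29 to 0.62. Of the fold changes given, 606 of 684 values with 1 library left out and 306 of 339 under other alternatives kept their direction and side of the threshold. These totals include values that were short of the threshold and stayed so. Among the calls, 49 values with 1 library left out and 14 under other alternatives fell short of the threshold.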
